A study of Homo sapiens with 4 samples.

Results

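The Wnt and SMAD mediators on this protein array were taken as every antibody, to a total protein or to a phosphorylated site, raised against DVL3, LRP6, SFRP1, β-catenin, ACVRL1, Smad1, Smad3, Smad4 or c-Myc. The 9 proteins were covered by 10 of the 440 antibodies of the panel, 8 to total proteins (DVL3, SFRP1, b-Catenin, ACVRL1, Smad1, Smad3, Smad4 and c-Myc) and 2 to phosphorylated sites (LRP6_pS1490 and b-Catenin_pT41_S45). Their genes are DVL3, LRP6, SFRP1, CTNNB1, ACVRL1, SMAD1, SMAD3, SMAD4 and MYC. All 10 had a level in all 4 samples, and none was left out by a filter. DVL3, Smad3 and Smad4 were among the proteins that the study itself picked on these same samples for its Hippo pathway heatmap, so their direction here is not independent evidence of that choice.

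The samples were lysates of LN229, an established human glioblastoma cell line, of which 2 were untreated and 2 were treated with salmon calcitonin (sCT), a peptide ligand of the calcitonin receptor, at 300 nM for 60 min. In reverse phase protein array (RPPA) profiling, lysates are spotted on coated slides as dilution series, with 1 antibody used per slide. The untreated samples are labelled with a time of 0 min, so sCT treatment and the time in culture between 0 and 60 min cannot be told apart. The series text calls the samples of a group biological duplicates, and all of them come from the same cell line. SOX2, vimentin and EGFR, which are carried by many gliomas, are on the panel, but a relative level does not show whether a protein is present, so the identity of the cells was not checked.

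Wnt ligands bind Frizzled receptors with the co-receptors LRP5 and LRP6, and secreted Frizzled-related proteins such as SFRP1 bind Wnt ligands outside the cell. Dishevelled proteins, DVL3 among them, carry the signal from the receptors to a destruction complex in which casein kinase 1 and GSK3 phosphorylate β-catenin at its N-terminal serines and threonines, S45 and T41 among them, and so mark it for degradation. β-catenin that escapes enters the nucleus and activates genes, MYC being a well-known one, and at the membrane it links cadherins to the cytoskeleton. The SMAD branch starts at TGF-β and BMP receptors. Smad3 is phosphorylated by TGF-β and activin receptors, Smad1 by BMP receptors and by ACVRL1 (ALK1), and both bind Smad4, the common partner that enters the nucleus with them. Both branches act in glioma invasion and in the upkeep of glioma stem-like cells.

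Of the 10 antibodies, 4 fell after sCT treatment and none rose. DVL3 was 55.3% lower, total β-catenin 28.9% lower, Smad3 22.9% lower and Smad4 14.9% lower, all with an adjusted p under 0.05 in limma. The other 6, LRP6_pS1490, SFRP1, b-Catenin_pT41_S45, ACVRL1, Smad1 and c-Myc, did not pass the test, with log2 fold changes between -0.09 and 0.08. Of the whole panel, 55% of antibodies passed that test in either direction, 33.6% lower and 21.4% higher, so 4 of 10 lower (40%) is near the background and 0 of 10 higher is below it. The median log2 fold change was -0.09 over the 10 antibodies and 0.02 over the panel. An unequal-variance test on linear levels, which takes each antibody alone, left the 4 falls at adjusted p-values from 0.0776 to 0.144, with 1 call on the whole panel.

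**Figure D1:**
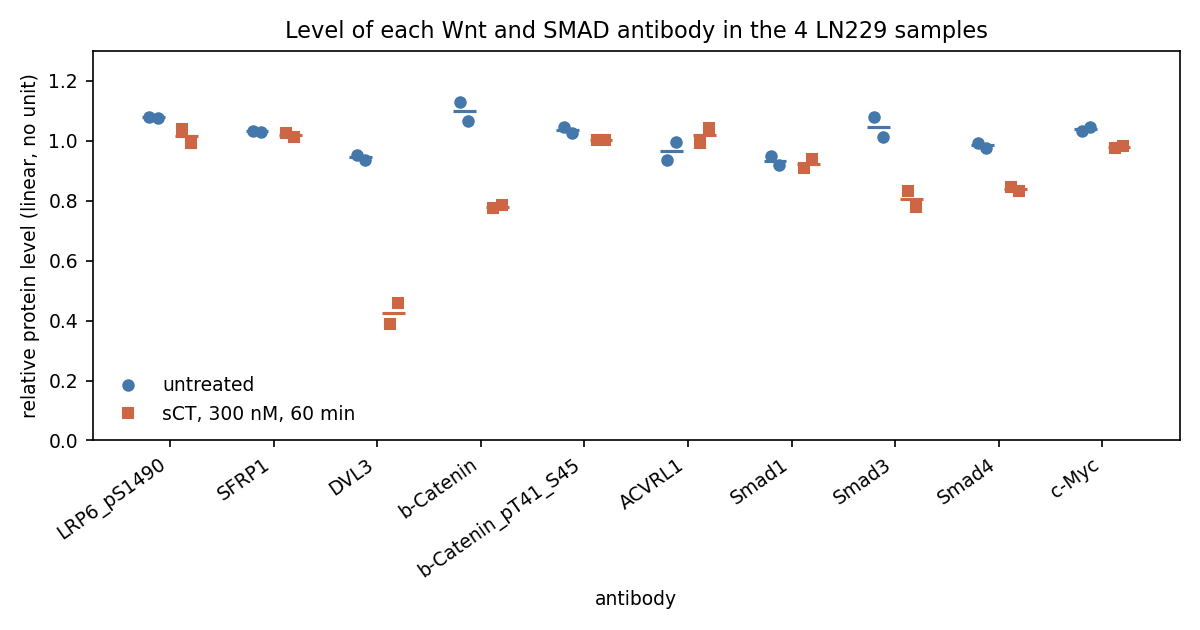
Relative protein level (linear, no unit) of the 10 antibodies in each LN229 sample, with circles for the 2 untreated samples, squares for the 2 samples treated with sCT at 300 nM for 60 min and short lines for the group means. DVL3 drops from above 0.9 to below 0.5, b-Catenin, Smad3 and Smad4 drop by less, and the other antibodies stay near their untreated levels.

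The values are linear relative levels, 1 per antibody and sample, scaled so that each sample has a median of about 1. A level can be compared between samples for 1 antibody, and not from antibody to antibody. The levels were transformed to log2 and tested on all 440 antibodies at once, with Benjamini-Hochberg adjustment over the panel. On the log2 scale, replicates had a median SD of 0.05 (untreated) and 0.04 (sCT), and the replicates of the panel correlated with r = 0.790 across antibodies in untreated and r = 0.975 in sCT-treated cells. The 2 groups did not overlap for 85.9% of the panel, so a lack of overlap says little on its own. A single antibody tested by exact permutation over 2 against 2 samples cannot reach a two-sided p under 0.333.

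At the receptor level no change passed the test. LRP6_pS1490 recognises the Wnt co-receptor LRP6 at a site in its cytoplasmic tail that is phosphorylated when the pathway is active. Its level was 1.08 and 1.08 in the untreated samples and 1.04 and 0.991 in the sCT-treated samples. Both sCT-treated samples lay below both untreated ones, by 0.05 log2 units at the nearest, which is less than the 0.07 between the sCT replicates. This amounted to -0.09 on the log2 scale, with a 95% confidence interval from -0.21 to 0.04 (adjusted p = 0.180). Total LRP6 was not analysed here, so the site could not be set against the amount of the receptor.

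SFRP1, the secreted Wnt antagonist, had levels of 1.03 and 1.03 in untreated cells and 1.03 and 1.01 after sCT treatment. It was among the steadiest antibodies of the panel, with a log2 fold change of -0.02 (95% confidence interval from -0.13 to 0.10, adjusted p = 0.755).

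DVL3, the Dishevelled protein that relays the signal from Frizzled and LRP6, fell the most. Its level was 0.952 and 0.937 in the untreated samples and 0.390 and 0.458 in the sCT-treated samples. The untreated samples were nearly equal, the sCT-treated samples differed from each other by 0.23 log2 units, and the gap between the groups was 1.03 log2 units. The mean went from 0.944 ± 0.0107 (SD, n = 2) to 0.424 ± 0.0479 (SD, n = 2), a log2 fold change of -1.16 (SE 0.09, 95% confidence interval from -1.39 to -0.93, adjusted p = 0.000603). DVL3 had the 41st lowest log2 fold change of the 440 antibodies. It was the only one of the 10 to pass the thresholds the study names for its Hippo pathway heatmap. These are a p under 0.05 and an absolute log2 fold change of at least 0.58. The study does not say whether its p was adjusted. An unadjusted p was used here, and 21.6% of the panel passed. Smad3 (-0.37) and Smad4 (-0.23), also picked for that heatmap, did not reach 0.58 in this fit. Quantile normalization, which forces the samples to 1 distribution, gave a smaller fall of DVL3, -0.67 (adjusted p = 0.00192).

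Total β-catenin, which holds both the signalling and the cadherin-bound protein, fell by less. The levels were 1.13 and 1.07 in untreated cells and 0.774 and 0.786 after sCT treatment. The sCT replicates had an SD of 0.02 log2 units and the groups were 0.44 log2 units apart. The log2 fold change was -0.49 (SE 0.05, 95% confidence interval from -0.63 to -0.36, adjusted p = 0.00160), and its interval did not overlap that of DVL3. RPPA reads whole lysates, so whether the nuclear, cytoplasmic or membrane pool was lower was not measured.

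β-catenin phosphorylated at T41 and S45, the form marked on the way to degradation, did not follow the total protein. Its level was 1.05 and 1.02 in untreated cells and 1.003 and 1.002 after sCT treatment. The groups were only 0.03 log2 units apart, which is about the difference between the untreated replicates. The difference was -0.05 on the log2 scale (95% confidence interval from -0.16 to 0.07, adjusted p = 0.380), and the interval does not reach the fall of the total protein.

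Set against total β-catenin within each sample, the phosphorylated form was therefore relatively higher after sCT treatment. Nearly all of this came from the fall of the total (-0.49 log2 units), as the phosphorylated form moved by only -0.05. The log2 ratio of phosphorylated to total β-catenin was -0.11 and -0.06 in the untreated samples and 0.37 and 0.35 in the sCT-treated samples. The groups did not overlap, and the difference of 0.45 log2 units, a 1.36-fold higher ratio, was many times the SD of either group (0.04 in untreated and 0.02 in sCT-treated cells). The exact permutation test gave a two-sided p = 0.333, the smallest that 2 against 2 samples allow. A scaling that multiplies all levels of a sample by 1 factor cancels in this ratio, and quantile normalization, which is not of that kind, gave 0.33. The ratio compares samples and says nothing of what share of β-catenin was phosphorylated, since the antibodies have their own scales. Signal over background is not known, so whether the flat phosphorylated reading lay near background was not tested.

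**Figure D2:**
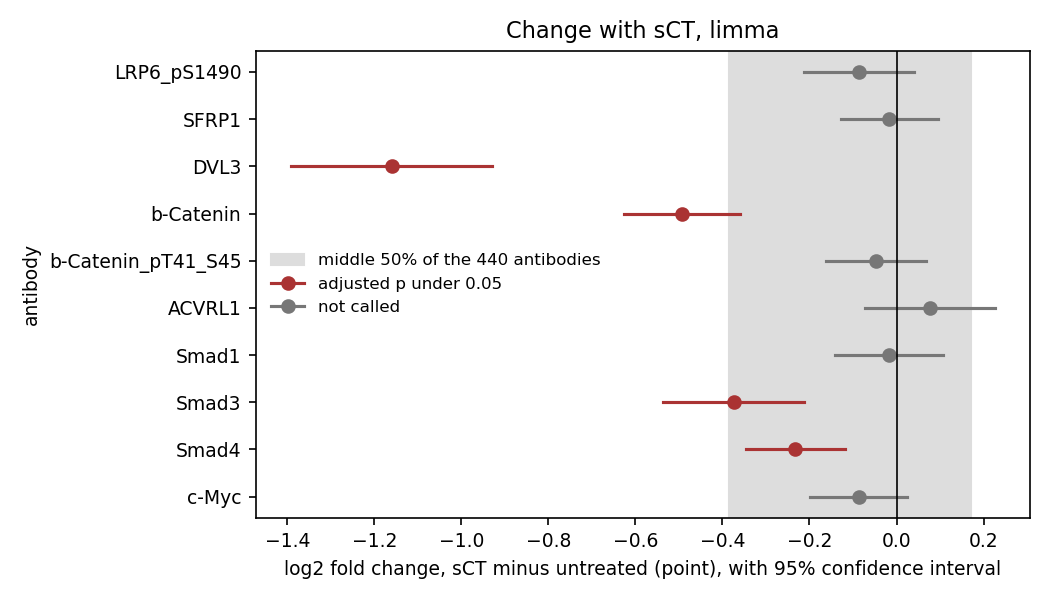
Log2 fold change of each antibody, sCT-treated minus untreated, with points for the estimate and lines for its 95% confidence interval in limma, and grey shading for the interquartile range of all 440 antibodies. DVL3 at -1.16 and b-Catenin at -0.49 lie below the shaded range, Smad3 and Smad4 lie inside it with intervals below 0, and the intervals of the other 6 cross 0.

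In the same samples DVL3 fell more than total β-catenin. Their log2 ratio was -0.25 and -0.19 in untreated cells and -0.99 and -0.78 after sCT treatment, a difference of -0.67 with no overlap (exact permutation test, two-sided, p = 0.333, the smallest possible). With quantile normalization the difference was -0.27.

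GSK3, the kinase of the destruction complex, was covered by 3 further antibodies. Inhibitory phosphorylation at GSK-3a-b_pS21_S9 fell from 1.82 and 2.01 to 0.614 and 0.610, which is -1.65 on the log2 scale (adjusted p = 0.000141). Total GSK-3B fell from 1.19 and 1.30 to 0.801 and 0.851, a log2 fold change of -0.59 (adjusted p = 0.00210), whereas the antibody to total GSK-3a-b read 0.22 (95% confidence interval from 0.03 to 0.41, adjusted p = 0.0585). Of the 8 antibodies on the list of Wnt receptors and destruction complex, which holds these 3 and the 5 Wnt antibodies described above, 4 fell and 0 rose, with a median log2 fold change of -0.29. The share called on this list, 50%, was near the 55% of the panel.

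On the SMAD side, the receptor ACVRL1 did not pass the test. ACVRL1 is a type I receptor of the TGF-β family, best known from endothelial cells. Its level was 0.935 and 0.997 in untreated cells and 0.994 and 1.04 after sCT treatment, and the groups overlapped. On the log2 scale the difference was 0.08 (95% confidence interval from -0.07 to 0.23, adjusted p = 0.291), the only value above 0 among the 10.

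Smad1, the SMAD of the BMP branch, was flat. Its level was 0.948 and 0.920 in untreated cells and 0.908 and 0.938 after sCT treatment, with the sCT-treated samples on either side of an untreated one. Its log2 fold change was -0.02 (95% confidence interval from -0.14 to 0.11, adjusted p = 0.760).

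Smad3, the SMAD of the TGF-β branch, fell. Its level was 1.08 and 1.01 in the untreated samples and 0.834 and 0.780 in the sCT-treated samples. The replicates of a group differed by up to 0.10 log2 units, against a gap of 0.28 between the groups. The log2 fold change was -0.37 (SE 0.06, 95% confidence interval from -0.54 to -0.21, adjusted p = 0.00679). This interval lies below the whole interval of Smad1, but overlaps those of β-catenin and Smad4. Without sCT replicate 2 the fall was -0.33 and just missed the threshold (adjusted p = 0.0503).

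Smad4, the common partner, fell the least of the 4. The levels were 0.991 and 0.977 in untreated cells and 0.845 and 0.831 after sCT treatment. The largest difference between replicates was 0.02 log2 units, and the groups were 0.21 log2 units apart. The log2 fold change was -0.23 (SE 0.04, 95% confidence interval from -0.35 to -0.12, adjusted p = 0.0102). Smad4 kept its direction but was not called when either sCT-treated sample was left out, with adjusted p-values of 0.0587 (replicate 1) and 0.0677 (replicate 2).

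Within samples the log2 ratio of Smad3 to Smad4 was 0.12 and 0.05 in untreated cells and -0.02 and -0.09 after sCT treatment. The difference of -0.14 had no overlap between groups, but it was less than 3 times the SD of either group (0.05 in each), and the exact permutation test gave a two-sided p = 0.333. Phosphorylated SMADs were not analysed here, so the values describe amounts of Smad3 and Smad4, not their activation by receptors.

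c-Myc, the transcription factor at the end of several growth pathways and a target gene of β-catenin, was only slightly lower. Its level was 1.03 and 1.05 in untreated cells and 0.976 and 0.982 after sCT treatment. Replicates differed by up to 0.02 log2 units and the groups did not overlap, with a gap of 0.07. The log2 fold change of -0.09 did not pass the test (95% confidence interval from -0.20 to 0.03, adjusted p = 0.139). A fall of the size seen for β-catenin lies outside that interval.

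**Figure D3:**
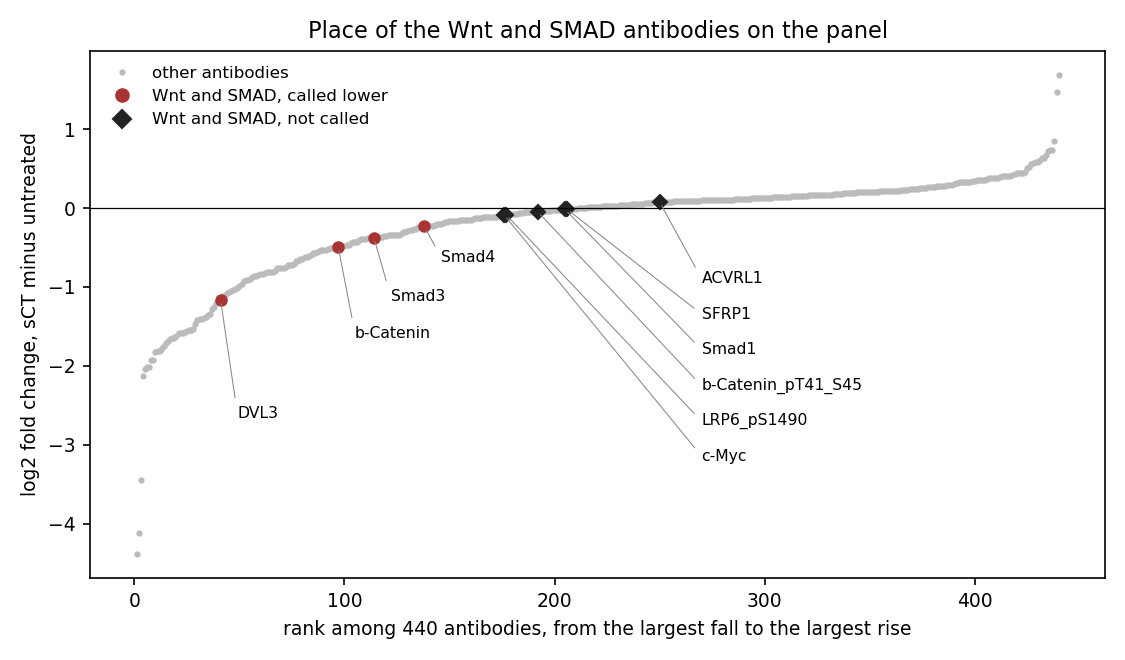
Log2 fold change of all 440 antibodies, sCT-treated minus untreated, ranked from the largest fall (left) to the largest rise (right), with red circles for the 4 antibodies called lower and black diamonds for the 6 that were not called. DVL3 lies at rank 41, b-Catenin at 97, Smad3 at 114 and Smad4 at 138, and the others sit between 176 and 250, near the middle of the panel.

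The order of the falls was DVL3, β-catenin, Smad3 and Smad4. Only the first step of that order was larger than the confidence intervals, since those of β-catenin and Smad3, and of Smad3 and Smad4, overlapped. On the panel DVL3 had 9.11% of antibodies below it, β-catenin 21.9%, Smad3 25.7% and Smad4 31.2%, so falls of the size of Smad3 and Smad4 were common.

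The antibodies whose profile over the 4 samples lay closest to each member were found by the Euclidean distance between log2 levels, each antibody centred on its own mean. For DVL3 they were Tuberin (distance 0.09), ATRX (0.11) and histone H3 phosphorylated at S10 (0.13), with log2 fold changes of -1.11, -1.08 and -1.27. For β-catenin they were eEF2K, UVRAG and Snail, with distances from 0.02 to 0.05. For Smad3 they were PKA-a, RRM2 and mTOR_pS2448, with distances from 0.08 to 0.11, and for Smad4 they were FAK, Jak2 and YB1_pS102, with distances from 0.03 to 0.05. For c-Myc the closest were COG3, EGFR and SETD2, with distances from 0.01 to 0.03. With 4 samples in 2 groups these distances mainly compare the size of the change. For the 5 remaining antibodies the closest were nearly flat as well, with log2 fold changes between -0.08 and 0.10. B7-H4 was among the closest to SFRP1, Smad1 and b-Catenin_pT41_S45. Signal over background is not known, so whether these flat antibodies read their proteins was not tested.

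Of the proteins that bind β-catenin at the membrane, 2 cadherins were examined, and neither passed the test. E-Cadherin, the epithelial cadherin, read 0.05 (95% confidence interval from -0.07 to 0.17, adjusted p = 0.379) and P-Cadherin 0.13 (95% confidence interval from 0.00 to 0.27, adjusted p = 0.0780) on the log2 scale.

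Antibodies to proteins encoded by known targets of Wnt and β-catenin moved in both directions. Of the 11 antibodies on that list, which includes c-Myc, 5 fell and 3 rose, with a median log2 fold change of -0.09. On the list 45.5% were lower and 72.7% were called, against 33.6% and 55% of the panel. The largest falls were in Connexin-43, the main gap junction protein of astrocytes, in c-Jun_pS73, an AP-1 subunit read at a site of JNK kinases, and in Axl, a receptor tyrosine kinase. The c-Jun_pS73 antibody reads a phosphorylated site, not the amount of c-Jun.

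Connexin-43 went from 0.600 and 0.702 to 0.115 and 0.225 (log2 fold change -2.02, adjusted p = 0.00689). c-Jun_pS73 went from 0.636 and 0.954 to 0.317 and 0.335 (log2 fold change -1.26, adjusted p = 0.00640). Axl went from 1.31 and 1.29 to 0.834 and 0.821 (log2 fold change -0.65, adjusted p = 0.000432). The sCT-treated samples lay below the untreated ones in each case. The falls of Connexin-43 and c-Jun_pS73 depended on the scaling, with 0.25 and -0.26 and no call under quantile normalization (adjusted p = 0.709 and 0.701), and each also lost its call without 1 sample, Connexin-43 without untreated replicate 2 (adjusted p = 0.0547) and c-Jun_pS73 without sCT replicate 1 (adjusted p = 0.0578).

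The rises on this list were led by Cox2, the inducible prostaglandin synthase, with levels of 1.04 and 0.836 in untreated and 3.22 and 2.80 in sCT-treated cells. Its log2 fold change of 1.69 (adjusted p = 0.000637) was the largest rise of the panel. MMP14, a membrane-bound metalloproteinase, read 0.36 (adjusted p = 0.0326) and CD44, the hyaluronan receptor, read 0.26 (adjusted p = 0.00681). Centring on loading controls, described below, left MMP14 at 0.17 (adjusted p = 0.188) and CD44 at 0.08 (adjusted p = 0.335). The rise of MMP14 was not called in 3 of the 4 fits that left out a sample, with adjusted p-values of 0.0718 and 0.138 (untreated replicates 1 and 2) and 0.113 (sCT replicate 1), and CD44 without sCT replicate 2 (adjusted p = 0.0514).

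**Figure D4:**
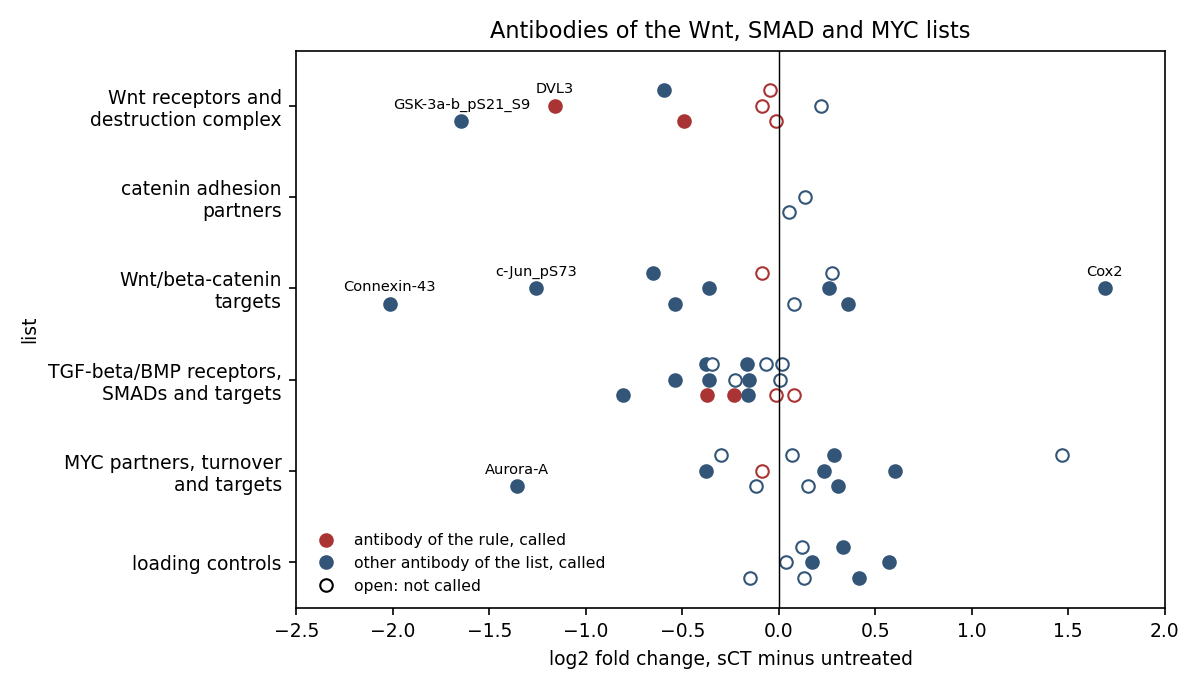
Log2 fold change (sCT-treated minus untreated) of the antibodies on each list, 1 circle per antibody, red for the 10 Wnt and SMAD antibodies and blue for the others, filled where the adjusted p was under 0.05. The list of TGF-β and BMP receptors, SMADs and targets holds 9 called falls and no called rise, whereas the Wnt target and MYC lists hold calls on both sides of 0.

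On the list of TGF-β and BMP receptors, SMADs and targets, called antibodies were all lower. Of its 16 antibodies 9 fell, 0 rose and 7 were not called, with a median log2 fold change of -0.20. The share called, 56.2%, was near the 55% of the panel, of which 33.6% were lower and 21.4% higher. ZEB1 and Snail, transcription factors that repress E-cadherin, and p21, a cell cycle inhibitor induced by TGF-β, fell the furthest. ZEB1 went from 1.05 and 1.07 to 0.590 and 0.622 (log2 fold change -0.81, adjusted p = 0.000340), and Snail from 1.84 and 1.76 to 1.23 and 1.25 (log2 fold change -0.54, adjusted p = 0.000945).

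p21 went from 1.65 and 1.64 to 1.23 and 1.30 (log2 fold change -0.38, adjusted p = 0.00332), and was not called under quantile normalization (-0.16, adjusted p = 0.117). The count of the list was 4 lower and 1 higher under quantile normalization, and 4 antibodies were called with sCT replicate 1 left out, as with sCT replicate 2 left out. Without the members of the Wnt and SMAD set, 7 of the 12 remaining antibodies fell and 0 rose. The 9 falls of the whole list include Smad3 and Smad4, described above. They also include Snail and Fibronectin, which count among the falls of the Wnt target list as well. They further include 3 antibodies to p27 with log2 fold changes from -0.17 to -0.16, which are readings of the same protein. None of these 3 was called under quantile normalization (adjusted p from 0.148 to 0.608), with the replicate block (adjusted p from 0.0575 to 0.0715) or in any fit that left out a sample (adjusted p from 0.0567 to 0.202).

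Among 12 antibodies to MYC partners, turnover factors and targets, 2 fell, 4 rose and 6 were not called, with a median log2 fold change of 0.11. The share called, 50%, was near the 55% of the panel. Aurora-A, a mitotic kinase that stabilises MYC family proteins, fell from 1.98 and 2.16 to 0.729 and 0.891 (log2 fold change -1.36, adjusted p = 0.000751), and p21 is the other fall. Hexokinase-II, the first enzyme of glycolysis, rose by 0.60 (adjusted p = 0.0104), PCNA, the replication clamp, by 0.31 (adjusted p = 0.00437), and Glutaminase by 0.29 (adjusted p = 0.00810) on the log2 scale. Without sCT replicate 1, Hexokinase-II (adjusted p = 0.0689) and Glutaminase (adjusted p = 0.0587) were not called, and 3 antibodies of the list were called. PCNA (0.12, adjusted p = 0.145) and Glutaminase (0.10, adjusted p = 0.206) were not called with loading control centring, described next.

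The scaling of the samples bears on the antibodies that were not called. Of 7 total-protein loading controls, including b-Actin, GAPDH, Vinculin and HSP70, 6 had a log2 fold change above 0, up to 0.57. When each sample was centred on these controls, each taken relative to its own mean, the whole panel moved by -0.18 log2 units, and 201 antibodies were lower and 29 higher, in place of 148 and 94. Of the 10 Wnt and SMAD antibodies, 9 were then lower past an adjusted p of 0.05, with log2 fold changes from -0.20 to -1.34, and ACVRL1 read -0.11 (adjusted p = 0.228).

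DVL3, β-catenin, Smad3 and Smad4 were lower under median centring, quantile normalization and loading control centring, with an adjusted p of at most 0.0472. Of these scalings, only quantile normalization could have reversed a fall. Median centring moved the panel's median by only -0.000463 log2 units, and loading control centring lowers every antibody. The call of lower or not called for LRP6_pS1490, SFRP1, b-Catenin_pT41_S45, Smad1 and c-Myc depended on whether the panel's median or the loading controls were held constant, and which of these is the better reference was not tested. The ratio of phosphorylated to total β-catenin is free of this choice, since either reference moves both antibodies by the same amount. With loading controls held constant the total read -0.68 and the phosphorylated form -0.23, which is no further check of the ratio.

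**Figure D5:**
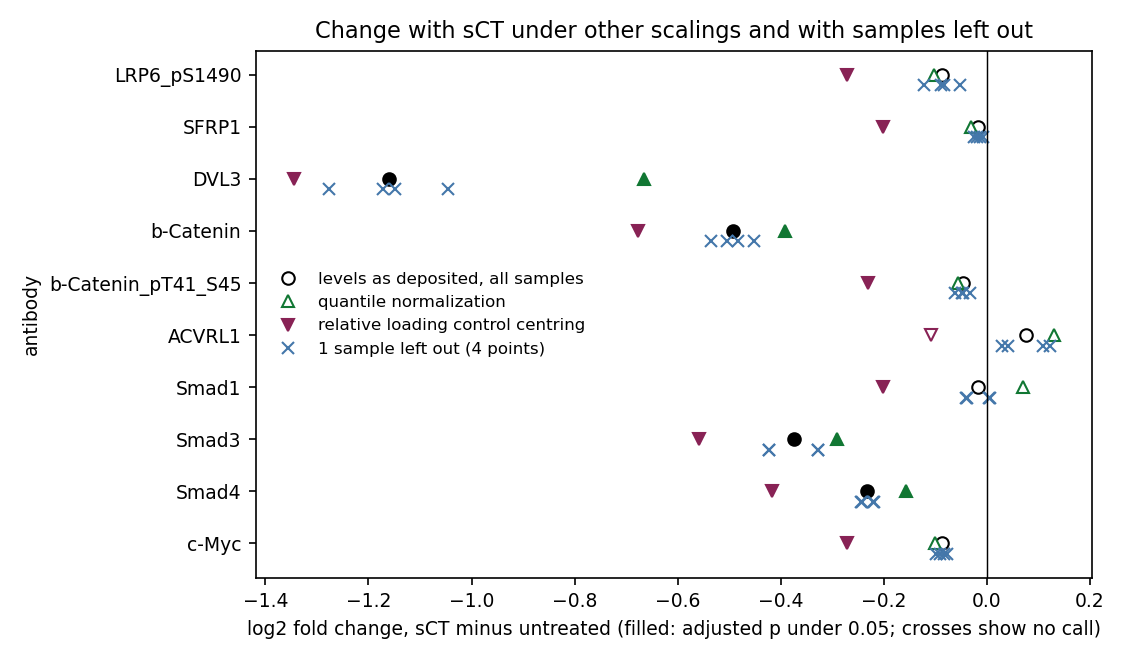
Log2 fold change of the 10 antibodies with the levels as deposited (circles), after quantile normalization (upward triangles), after relative loading control centring (downward triangles) and with each sample left out in turn (crosses, which show no call), with filled circles and triangles for an adjusted p under 0.05. The falls of DVL3, b-Catenin, Smad3 and Smad4 keep their side of 0 throughout, as they must with a sample left out, since their groups do not overlap. Loading control centring moves every antibody to the left by the same amount.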

How the data were processed

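The authors diluted LN229 lysates serially, printed them with an Aushon arrayer, probed the slides with antibodies and quantified DAB signals with Array-Pro Analyzer. The values they deposited are a linear ratio scale, a relative level with a median of about 1 per sample over 440 antibodies. The steps from spot intensities to these levels are not given in the sources used here, which leaves signal over background unknown. The number of samples (2 per group) limits the precision.

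Levels were transformed to log2 with no pseudocount (all were above 0) and no filter, and fitted by group alone with lmFit and eBayes of limma 3.58.1 under R 4.3.3 (2 residual and 2.59 prior degrees of freedom). Adjusted p-values are limma's, two-sided, by Benjamini-Hochberg over 440 antibodies, called under 0.05. The steps were tested on simulated data. Ratios were tested by exact permutation.

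The members and lists were chosen with earlier results of these data known. Named antibodies are the 10 members, all of the Wnt receptor and destruction complex list and of the SMADs, the 3 largest called falls and rises of the other lists, and the 3 closest profiles. The 2 cadherins, Fibronectin, p27 and the loading controls were named after their values were seen. Gene symbols of all 10 were found in RefSeq (GRCh38.p14). Alternatives were linear levels, median, quantile and loading control scaling, trend and robust eBayes, leaving out low antibodies or each replicate, a replicate block and an unequal-variance test on linear levels.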

Additional observations from a re-analysis of the deposited data

How the results depend on the processing

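The falls of DVL3, b-Catenin, Smad3 and Smad4 kept their direction under every alternative that gave a value, but most of these could not have reversed it. Their groups did not overlap, so neither leaving out a sample nor using linear levels can change the sign. Trend and robust eBayes, the replicate block and the filter on low levels leave the log2 fold change itself as it was. With each replicate left out, the log2 fold change was -1.28 to -1.04 for DVL3, -0.53 to -0.45 for b-Catenin, -0.42 to -0.33 for Smad3 and -0.24 to -0.22 for Smad4. An unequal-variance test run on the linear levels changed the scale and the way the spread is estimated together, and called 0 of the 10 after adjustment, with differences in level of -0.520 for DVL3 (adjusted p = 0.125), -0.318 for b-Catenin (adjusted p = 0.144), -0.239 for Smad3 (adjusted p = 0.131) and -0.146 for Smad4 (adjusted p = 0.0776). It called 1 antibody of the panel, 1 lower and 0 higher, and 0 on each list. Relative loading control centring called LRP6_pS1490 (-0.27), SFRP1 (-0.20), b-Catenin_pT41_S45 (-0.23), Smad1 (-0.20) and c-Myc (-0.27) and turned ACVRL1 to -0.11, with 9 of the 10 lower, 29 antibodies of the panel higher and 7 of the Wnt receptor and destruction complex list called. Smad1 had no stable sign, with 0.0705 under quantile normalization and -0.0410 to 0.00626 with a replicate left out. Quantile normalization called 5 antibodies on the Wnt target list (2 lower, 3 higher) and 5 on the TGF-β list (4 lower, 1 higher). It moved the ratio of phosphorylated to total β-catenin to 0.33 and that of DVL3 to β-catenin to -0.27.

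With each replicate left out, the antibodies called were 148 to 214 on the panel (38 to 76 higher), 2 to 4 of the 10 lower, 4 in each case on the Wnt receptor list, 5 to 7 on the Wnt target list, 4 to 8 on the TGF-β list, 3 to 6 on the MYC list and 2 to 3 among loading controls. The lowest panel counts were 148 without sCT replicate 1 and 158 without sCT replicate 2, and 55 were higher without untreated replicate 2. Such fits take the spread of the lone sample from the other group. A filter on the lowest 10% of mean levels removed DVL3 itself. That mean was taken over all 4 samples, so it held the sCT levels of DVL3. These were 0.390 and 0.458, against 0.952 and 0.937 in untreated cells. The replicate numbers are not said to mark a shared culture or day. With 2 per group their deviations correlated at 0.586, and the replicate block gave 238 called antibodies on the panel, with 4 of the 10 lower (DVL3 -1.16, b-Catenin -0.49, Smad3 -0.37, Smad4 -0.23), and changed no call among the 10. With the block, 6 antibodies of the TGF-β list were called in place of 9, the 3 to p27 being lost, 9 of the Wnt target list and 8 of the MYC list.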
